A study of Mus musculus with 6 samples.

Results

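The opioid system of the mouse was followed here through 9 genes in epiphyseal chondrocytes, the cartilage cells of the growing ends of bones. They are the precursor genes Penk, Pdyn, Pomc and Pnoc, the receptor genes Oprm1, Oprd1, Oprk1 and Oprl1, and Ogfr, the gene of the opioid growth factor receptor. Members were chosen by gene name from a table of 43346 genes, and each name matched 1 gene. Of the 9 genes, 7 had at least 1 count in some library and 5 had enough counts to be tested between genotypes.

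Polyadenylated RNA was sequenced from 3 wild type (WT) and 3 Girk3-null (Girk3-/-, labelled Girk3 KO) mice, all 5 days old, labelled male and of C57BL/6 strain. Chondrocytes had been released from cartilage by collagenase, left overnight in the enzyme and washed. The labels name no drug or opioid treatment in either group. How the null allele was made, and whether the wild type mice were littermates, is not given here. Kcnj9 encodes Girk3, one subunit of the potassium channels that G proteins gate. Opioid receptors open these channels in neurons through G protein beta and gamma subunits. That links the deleted gene to the 4 membrane receptors among the members.

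Opioid peptides are cut out of larger precursor proteins by enzymes of the secretory pathway. Penk yields the enkephalins, Pdyn the dynorphins, Pomc beta-endorphin along with corticotropin and the melanocortins, and Pnoc nociceptin. The mu (Oprm1), delta (Oprd1) and kappa (Oprk1) receptors and the nociceptin receptor (Oprl1) sit in the cell membrane and signal through inhibitory G proteins. Ogfr encodes an unrelated protein that is associated with the nucleus and binds Met-enkephalin, and it is known for slowing cell division. Penk transcripts are known outside the nervous system, in mesenchymal tissues of the embryo among others.

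The precursors differ in how many enkephalin units their coding sequences hold, and these units are shown because Penk was the only precursor at a high level. In the GENCODE M21 transcript Penk-201 (genome build GRCm38, the same assembly as mm10), 6 runs of 15 bases code for Met-enkephalin and 1 for Leu-enkephalin. All 7 lie in exon 2 of 2, on the minus strand, and with their flanking bases they fall within chr4:4133842-4134354. Each is given 5′ to 3′ in the direction of the transcript, the enkephalin codons in capitals and the 6 bases on either side in lower case.
Penk 1, Met-enkephalin: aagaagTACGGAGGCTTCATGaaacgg
Penk 2, Met-enkephalin: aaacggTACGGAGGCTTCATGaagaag
Penk 3, Met-enkephalin: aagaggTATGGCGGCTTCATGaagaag
Penk 4, Met-enkephalin: aagaggTATGGGGGCTTCATGagaagc
Penk 5, Met-enkephalin: aagcgcTACGGGGGCTTCATGagaagg
Penk 6, Leu-enkephalin: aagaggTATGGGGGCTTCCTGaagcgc
Penk 7, Met-enkephalin: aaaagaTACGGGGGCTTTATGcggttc
Pomc, Met-enkephalin: aagcgtTACGGTGGCTTCATGacctcc
Pdyn 1, Leu-enkephalin: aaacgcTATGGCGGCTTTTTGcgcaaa
The 6 Met-enkephalin runs of Penk were written with 5 different sets of codons. All 7 Penk runs had a pair of codons for basic residues (lysine or arginine) before them, and 5 had such a pair on both sides, the kind of site at which proprotein convertases cut. Pdyn-201 held 3 Leu-enkephalin runs, of which the first is shown, and all 3 had basic pairs on both sides. Pomc-201 held 1 Met-enkephalin run, in exon 3 of 3 on the plus strand, and with its flanking bases it spans chr12:3960367-3960393. Its basic pair stands before it only. In Pnoc-202, whose product nociceptin begins with a related but different unit, there was none.

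Some facts of the libraries bear on the results. Totals ran from 34279516 to 60392837 counts. Kcnj9 had 0 counts in all 6 libraries, so the deletion could not be checked. Against the male label, substantial counts of 4 Y-linked genes (Uty, Kdm5d, Eif2s3y, Ddx3y) were seen in Girk3-null replicate 1 alone, 16088 in sum against 0 to 7 elsewhere, and its Xist count was 19 against 67346 or more. Members' fold changes and the medians of gene lists are therefore given with and without that library. Col2a1, Acan and Sox9, which define chondrocytes, were present in every library (Col2a1 at 28877 to 88071 CPM). CPM are counts scaled to library size, here with TMM factors that even out library composition. The numbers in the sample titles are below 200 in 2 wild type libraries (replicates 1 and 2) and 1 null library (replicate 1), and above 200 in the other 3, and the labels do not say what the numbers stand for.

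Penk was by far the most abundant member. Its levels were 192, 235 and 127 RPKM (counts scaled to library size and gene length) in wild type replicates 1, 2 and 3. In Girk3-null replicates 1, 2 and 3 they were 61.4, 136 and 126 RPKM. Counted by RPKM, Penk stood between place 182 (wild type replicate 2) and place 692 (Girk3-null replicate 1) among all genes of a library. It rests on 6063 to 19331 counts per library, so counting error is small beside the spread between animals. The gene (ENSMUSG00000045573) spans chr4:4133531-4138819 in mm10, the build of all positions given here. A gene on the opposite strand, A830012C17Rik, overlaps it by 499 bases. That gene had 11 to 23 counts per library, and no source used here says whether the authors' counting used strand.

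**Figure D1:**
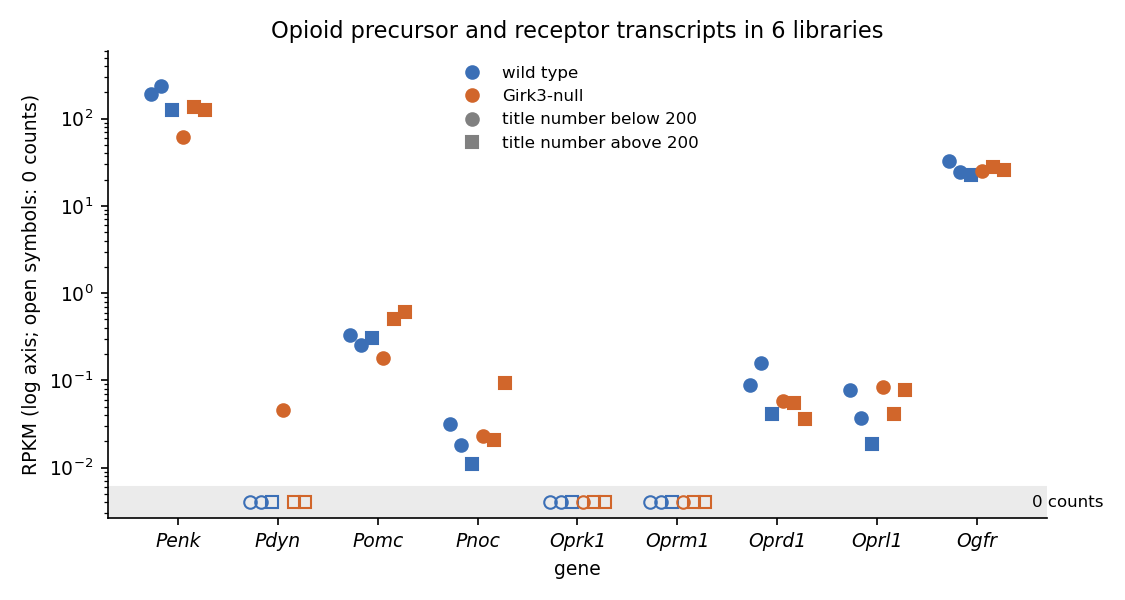
RPKM of the 9 genes (vertical log axis) in each library, coloured by genotype, with circles for title numbers below 200 and squares for those above. Penk lies between 61.4 and 235 RPKM and Ogfr between 22.9 and 32.8, while the other 7 genes are at or below 0.608 RPKM and open symbols mark libraries with 0 counts.

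The other precursors were near the limit of counting. Pomc (ENSMUSG00000020660, chr12:3954951-3960618) had 15, 13 and 13 counts in the wild type and 11, 23 and 21 in the Girk3-null libraries. On the RPKM scale that is 0.181 to 0.608, and Penk was 208 to 917 times higher within each library. Girk3-null replicate 1 was the lowest and Girk3-null replicates 2 and 3 were the highest, so the groups overlapped. Pnoc (ENSMUSG00000045731, chr14:65400673-65425472) had 3, 2 and 1 counts in the wild type and 3, 2 and 7 in the Girk3-null libraries, too few to be tested. Pdyn (ENSMUSG00000027400, chr2:129686565-129699844) was seen with 8 counts in 1 library, Girk3-null replicate 1, and with 0 in the remaining 5. The 8 counts have an exact Poisson 95% interval of 3.45 to 15.8 counts, and a count of 0 allows up to 3 counts (a one-sided 95% limit), which is 0.0596 to 0.0875 CPM of the library totals, without TMM factors, in those 5 libraries. That library also stood apart by its Y-linked genes and was the deepest, and their part in the Pdyn counts was not tested.

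None of the 4 membrane receptors was above a trace. Oprm1 (ENSMUSG00000000766, chr10:6758506-7038198) and Oprk1 (ENSMUSG00000025905, chr1:5588466-5606131) had 0 counts in all 6 libraries. Over the 276443313 counts of the 6 libraries together, a count of 0 allows up to 0.0109 CPM by the same limit. Per library and per length, the limit was 0.00618 to 0.0109 RPKM for Oprm1 and 0.00543 to 0.00956 RPKM for Oprk1. Such limits cover counting error only. Oprm1 overlaps Ipcef1 on the opposite strand by 152403 bases, and Ipcef1 itself had 333 counts over the 6 libraries.

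Oprd1, the delta receptor and the main membrane target of the enkephalins (ENSMUSG00000050511, chr4:132110726-132144486), had 16, 32 and 7 counts in the wild type libraries. In the Girk3-null libraries it had 14, 10 and 5. Wild type replicate 2 was highest and Girk3-null replicate 3 lowest, and the groups overlapped. Oprl1, the nociceptin receptor (ENSMUSG00000027584, chr2:181715016-181720985), had 13, 7 and 3 counts in the wild type and 19, 7 and 10 in the Girk3-null libraries, again with overlap. Levels were 0.0363 to 0.158 RPKM for Oprd1 and 0.0189 to 0.0838 RPKM for Oprl1, and these ranges do not separate the receptors from each other. Penk stood 1065 to 3479 times above Oprd1 within a library. In bulk RNA, fewer cells that express a gene and less RNA per cell cannot be told apart, and this holds for every level given here.

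Ogfr was the one receptor at a substantial level. It measured 32.8, 24.7 and 22.9 RPKM in the wild type and 25.0, 27.9 and 25.9 RPKM in the Girk3-null libraries. The highest and the lowest library were both wild type. Ogfr (ENSMUSG00000049401; chr2:180589245-180595836) ends 1953 bases before Col9a3, a cartilage collagen gene on the same strand with 56534 to 91284 counts per library. Ogfr had 2293 to 3902 counts, and whether reads of one gene were counted to the other was not tested. The order of mean RPKM over the 6 libraries was Penk (146), Ogfr (26.5), Pomc (0.366), Oprd1 (0.0731), Oprl1 (0.0562), Pnoc (0.0332) and Pdyn (0.00764), with Oprm1 and Oprk1 at 0. The ranges of Penk and Ogfr overlapped neither each other nor any other member. Pomc lay above the 6 genes that follow it, and Oprd1, Oprl1, Pnoc and Pdyn overlapped in range. Penk over Ogfr ranged from 2.45 in Girk3-null replicate 1 to 9.51 in wild type replicate 2.

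Between genotypes none of the members passed. By edgeR's quasi-likelihood test, 0 of 5 tested members had an adjusted p below 0.05, where 0.00570% of all 17554 tested genes passed (1 gene, Car8, named after its values were seen). At an unadjusted p below 0.05 there were 0 of 5, against 14.5% of all genes. Groups that did not overlap were seen for 0 of 5 members, against 20.0% of all genes. limma-voom called 0 of 5, and DESeq2 called 0 of the 2 members to which it gave an adjusted p (0.231 for Penk, 0.848 for Ogfr), against 2.14% of all genes. At an unadjusted p below 0.05, DESeq2 had 1 of 5 members, Penk, against 2718 of all 17554 genes. limma-voom had 0 of 5, against 2728 of 17554. These p-values measure the spread between 3 libraries per genotype, which the series text calls biological replicates.

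Penk was lower on average in the Girk3-null libraries, without passing the test. It measured 294, 355 and 214 CPM in wild type replicates 1, 2 and 3, and 102, 228 and 220 CPM in Girk3-null replicates 1, 2 and 3. Girk3-null replicate 1 lay far below the other 5 libraries, and wild type replicate 3 lay below Girk3-null replicates 2 and 3. Means were 288 ± 70.7 CPM in the wild type and 184 ± 70.6 CPM in the Girk3-null group (SD, n = 3 each). The fitted ratio of Girk3-null to wild type was 0.638, a log2 fold change of -0.65 (standard error 0.30, adjusted p = 0.354 in edgeR). Its 95% interval, from -1.33 to 0.04, includes 0. The interval left out 0 under 7 of 14 other settings, among them DESeq2 (-1.23 to -0.07), though the p adjusted over all genes passed under none. The 7 include library totals alone, log2(RPKM + 0.1) and log2(RPKM + 1), with upper ends of -0.09, -0.03 and -0.02. In these settings the median of all genes itself shifted by -0.11, -0.11 and -0.07. Each shift is larger than the distance of that upper end from 0. The highest library exceeded the lowest by 1.66-fold within the wild type and by 2.23-fold within the Girk3-null group.

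The difference in Penk lay among the libraries with title numbers below 200. There the 2 wild type libraries averaged 325 CPM and the 1 Girk3-null library had 102 CPM, a ratio of 0.315. Above 200 the 1 wild type library had 214 CPM and the 2 Girk3-null libraries averaged 224 CPM, a ratio of 1.05. Without Girk3-null replicate 1 the log2 fold change was -0.36 (standard error 0.20, adjusted p = 0.559 in edgeR). With that library left out and the title number range as a covariate, an alternative chosen after seeing the data, it was 0.072, with a 95% interval of -0.26 to 0.40. With the covariate and all 6 libraries it was -0.80 (adjusted p = 0.411 in edgeR). The library that carries the low Penk value is also the 1 with Y-linked counts, and genotype, that pattern and the title number cannot be told apart in it.

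**Figure D2:**
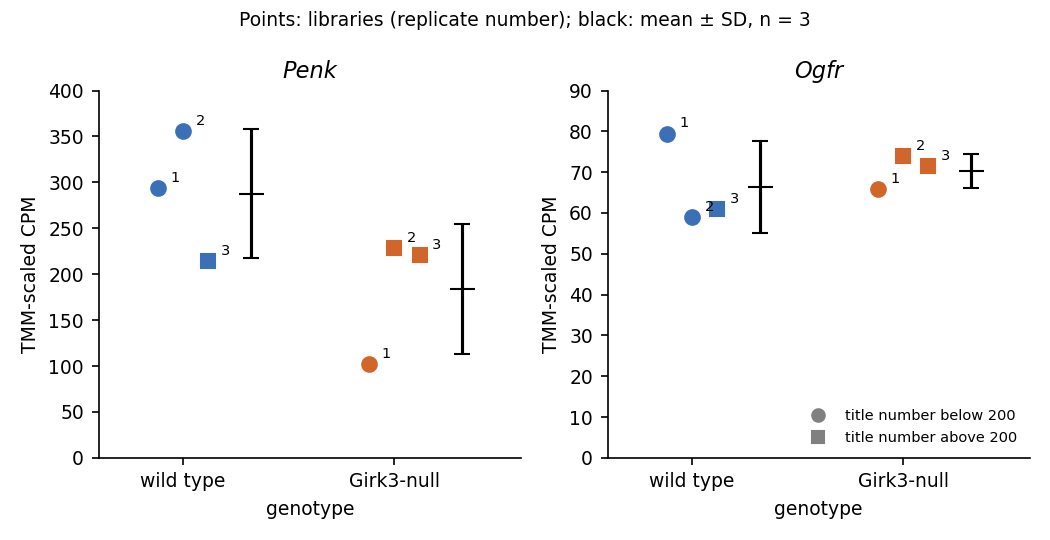
TMM-scaled CPM of Penk (left) and Ogfr (right) by genotype, with 1 point per library labelled by replicate number, circles for title numbers below 200, squares for those above, and the mean ± SD of 3 libraries in black. For Penk the circles lie at 294 and 355 CPM (wild type) and 102 CPM (Girk3-null), while the 3 squares lie between 214 and 228 CPM.

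Ogfr differed by less than the spread between replicates. It measured 79.4, 59.0 and 60.9 CPM in the wild type and 65.8, 73.9 and 71.5 CPM in the Girk3-null libraries. All Girk3-null values lie inside the wild type range. The log2 fold change was 0.08 (standard error 0.13, adjusted p = 0.777 in edgeR), with a 95% interval of -0.22 to 0.38. Its sign turned when libraries were scaled by their totals alone (-0.029) or compared as RPKM. The coefficient of variation over the 6 libraries was 11.6% for Ogfr and 36.1% for Penk.

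The 3 trace members that could be tested had wide errors. For Pomc the log2 fold change was 0.61 (95% interval -0.58 to 1.79). For Oprd1 it was -0.81 (95% interval -2.01 to 0.39). For Oprl1 it was 0.71 (95% interval -0.60 to 2.03). Adjusted p in edgeR was 0.583, 0.473 and 0.561 in that order. Standard errors were 0.52, 0.53 and 0.58 in the same order, against 0.30 for Penk, which did not pass either. Whether a difference of the size estimated for Penk could be detected at these counts was not tested. Without Girk3-null replicate 1 the log2 fold changes were 1.02 for Pomc, -0.92 for Oprd1, 0.52 for Oprl1 and 0.13 for Ogfr. Without wild type replicate 2 the log2 fold change of Oprd1 was -0.29, and it was 1.34 for Oprl1 without wild type replicate 1.

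**Figure D3:**
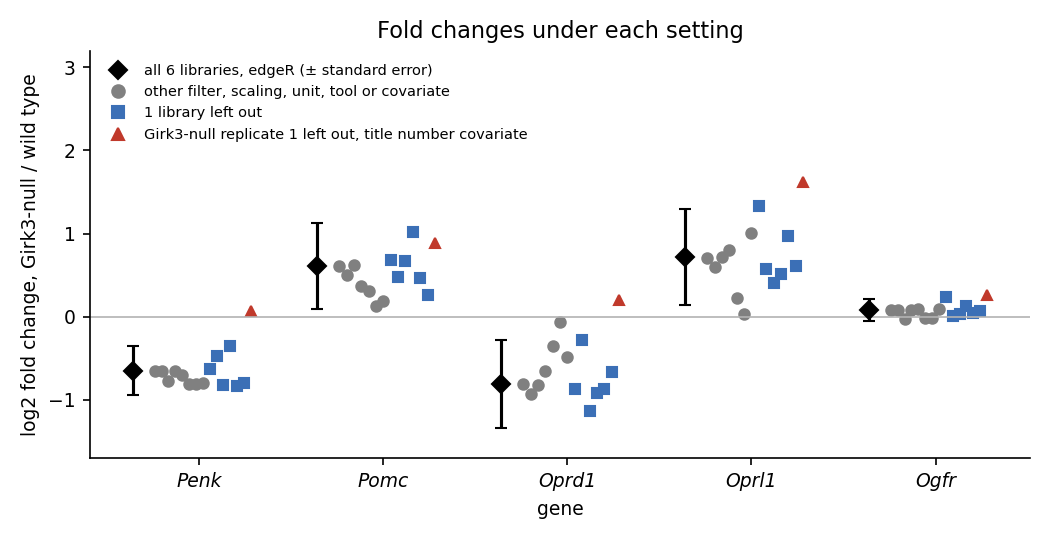
Log2 fold change, Girk3-null over wild type, of the 5 tested members: all 6 libraries with standard error (diamonds), other filters, scalings, units, tools or the covariate (circles), 1 library left out (squares), and Girk3-null replicate 1 left out with the title number covariate (triangles). Penk runs from -0.83 to -0.36 except for the triangle at 0.072, and Ogfr stays between -0.029 and 0.26.

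Genes for peptide processing differed widely in level. Of 13 such genes, 9 could be tested, 7 with positive and 2 with negative log2 fold changes, a median of 0.42 against 0.01 for all genes tested. None passed in edgeR (0 higher, 0 lower). Cpe, the carboxypeptidase that trims basic residues after the cut, averaged 402 RPKM, and the protease Ctsl averaged 331 RPKM. The convertases Pcsk6 and Furin averaged 24.6 and 17.8 RPKM. Pcsk1 and Pcsk2, the convertases of secretory granules, averaged 0.0415 and 0.0142 RPKM, and Furin, Pcsk1 and Pcsk2 were singled out after their values were seen. Pcsk6 measured 78.4, 72.8 and 98.9 CPM in the wild type and 236, 161 and 119 CPM in the Girk3-null libraries, without overlap. Its log2 fold change was 1.05 (standard error 0.24, adjusted p = 0.291 in edgeR), and DESeq2 called it (adjusted p = 0.00552). Cpe measured 596, 568 and 888 CPM against 1084, 974 and 969 CPM, also without overlap, with a log2 fold change of 0.56 (adjusted p = 0.291 in edgeR).

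Transcripts for proteins of dense-core secretory granules were low. The 2 highest of 10 by RPKM were the granule membrane protein Ptprn (0.750) and the secretogranin Scg2 (0.330). Of 4 tested genes 2 were positive and 2 negative (median -0.25), and none passed. Ptprn and Scg3, lowest in p, were at log2 fold changes -0.82 and -0.57 (adjusted p = 0.308 and 0.572 in edgeR).

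Peptidases that can degrade enkephalins or other opioid peptides were all measured. All 11 were tested, 8 positive and 3 negative, with a median of 0.06 and none passing. The aminopeptidases Lnpep and Npepps had the highest levels, 43.5 and 38.8 RPKM. Lnpep measured 248, 246 and 254 CPM in the wild type and 184, 195 and 219 CPM in the Girk3-null libraries (log2 fold change -0.32, adjusted p = 0.291 in edgeR). Ece2, an endothelin-converting enzyme homologue, had a log2 fold change of 0.38 (adjusted p = 0.314 in edgeR). Mme, the neprilysin gene and a classic enkephalinase, was named after its values were seen and averaged 0.614 RPKM.

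Downstream of the receptors, G protein genes ran from well expressed to a trace, and the channel genes were low. Of 20 subunit genes 19 were tested, 10 positive and 9 negative (median 0.06), and none passed. Gnai2, an inhibitory alpha subunit, and Gnb1, a beta subunit, averaged 76.7 and 76.4 RPKM. Other alpha subunits ran from 70.8 RPKM (Gnai3) to 0.352 RPKM (Gnaz), and the gamma subunit Gng3 averaged 0.0214 RPKM. Gnai3, Gnaz and Gng3 were named after their values were seen. Gng4 and Gnai1 had the lowest p in this list, at log2 fold changes -0.68 and -0.50 (adjusted p = 0.308 and 0.322 in edgeR). The potassium channel subunit genes Kcnj3, Kcnj5, Kcnj6 and Kcnj9 had 3, 98, 9 and 0 counts over all 6 libraries, named after their values were seen.

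Of the 15 channel and adenylyl cyclase genes 10 were tested, 6 positive and 4 negative (median 0.07), and none passed in edgeR. The cyclases Adcy6 and Adcy2 were the highest, at 18.4 and 12.1 RPKM. Adcy1 measured 3.13, 4.01 and 1.27 CPM in the wild type and 0.658, 1.28 and 0.997 CPM in the Girk3-null libraries (log2 fold change -1.53, adjusted p = 0.291 in edgeR and 0.0460 in DESeq2). Its groups overlapped at wild type replicate 3. Adcy2 had a log2 fold change of 0.33 (adjusted p = 0.299 in edgeR).

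Receptor kinases, arrestins and RGS proteins end receptor signalling. Of 15 receptor kinase, arrestin and RGS genes 14 were tested, 8 positive and 6 negative (median 0.06), and none passed in edgeR. Rgs16, an RGS protein that shortens G protein signalling, and Grk2 (listed as Adrbk1), a receptor kinase, had the highest levels, 54.2 and 21.8 RPKM. Rgs4 measured 13.9, 18.7 and 7.59 CPM in the wild type and 4.11, 7.17 and 6.33 CPM in the Girk3-null libraries (log2 fold change -1.20, adjusted p = 0.291 in edgeR and 0.0240 in DESeq2). Wild type replicate 3 lay just above the highest null library. Rgs9 had a log2 fold change of -0.46 (adjusted p = 0.460 in edgeR).

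Partners and atypical binders of opioid receptors included Wls, a membrane protein that binds the mu receptor, at 32.8 RPKM, and Ackr3, a scavenger receptor for opioid peptides, at 31.2 RPKM. Of 8 genes 7 were tested, 5 positive and 2 negative (median 0.02). None passed, and the smallest p-values belonged to the receptor-sorting genes Gprasp1 and Gprasp2 (log2 fold changes 0.21 and 0.25, adjusted p = 0.444 and 0.488 in edgeR). For Ogfr, genes of nuclear import and the cell cycle inhibitors Cdkn1a and Cdkn2a were taken. Of these 9 tested genes 3 were positive and 6 negative (median -0.30), and none passed. Cdkn1a, which encodes the inhibitor p21, averaged 220 RPKM and the transport GTPase Ran 53.5 RPKM. The importins Kpna2 and Kpna1 had log2 fold changes of -0.71 and -0.33 (adjusted p = 0.291 in edgeR for both). Kpna2 measured 36.1, 36.3 and 19.8 CPM in the wild type and 18.1 to 19.4 CPM in the Girk3-null libraries.

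Transcription factors of the CRE and AP-1 families, which act on the Penk promoter in other cells, were all tested. Of 12 genes 5 were positive and 7 negative (median -0.12), and none passed. Fos and Fosl2 were the highest, at 56.1 and 49.9 RPKM. Jund and Junb had the smallest p-values (log2 fold changes 0.59 and 0.66, adjusted p = 0.351 and 0.371 in edgeR). Over all 11 pathway lists together, 0 of 109 tested genes passed in edgeR, 20 (18.3%) had an unadjusted p below 0.05 against the 14.5% of all genes, and 22 (20.2%) had groups that did not overlap, against 20.0%. limma-voom called 0 of them and DESeq2 3 of 102 (Pcsk6, Adcy1 and Rgs4), against 2.14% of all genes, so the shares are near those of all genes. Without Girk3-null replicate 1 the median kept its sign in 5 of the 11 lists, among them the processing enzymes (0.35) and the import and cell cycle genes (-0.21). It turned in 6, to 0.07 for the granule proteins, 0.03 for the CRE and AP-1 factors, 0.34 for the melanocortin genes, and -0.01 to -0.05 for the peptidases, the kinase, arrestin and RGS genes and the channel and cyclase genes.

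**Figure D4:**
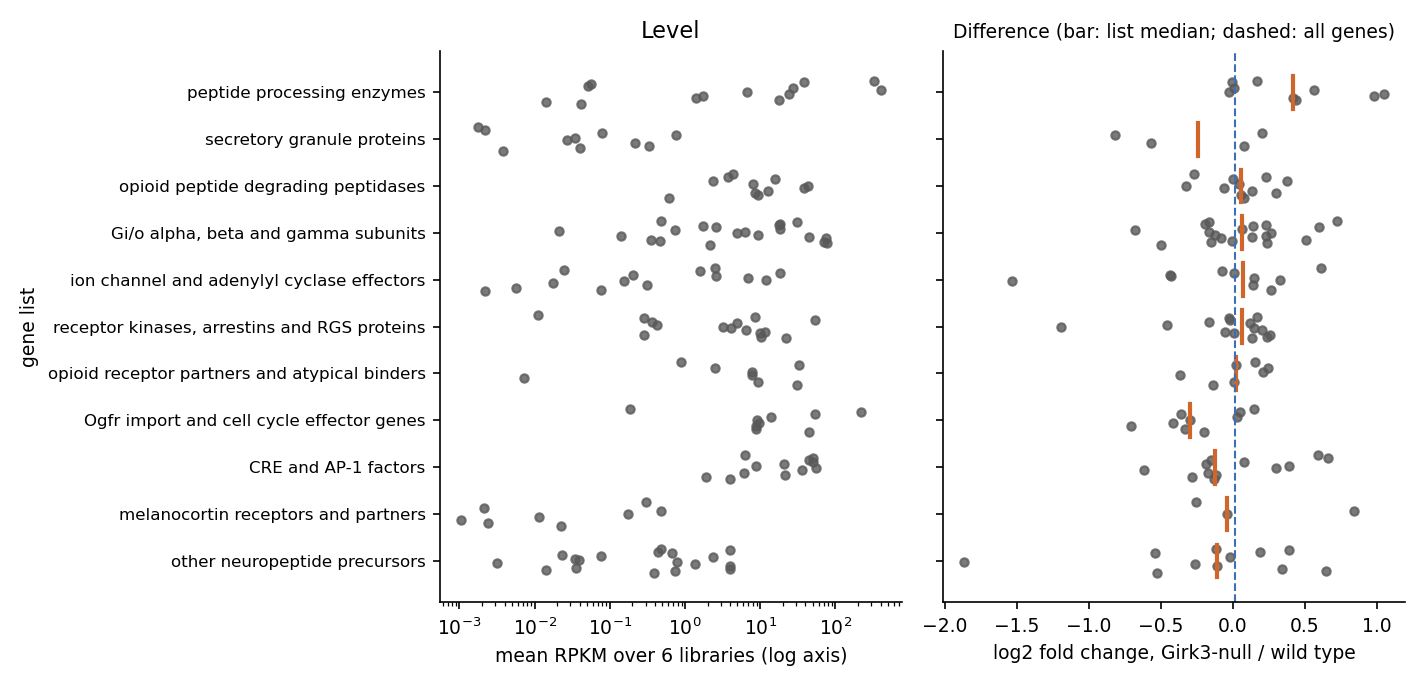
Left, mean RPKM over the 6 libraries (log axis) of each gene in the 11 pathway lists, with the 4 genes at 0 counts left out. Right, log2 fold change of each tested gene, Girk3-null over wild type, with the list median as an orange bar and the median of all genes (0.01) dashed, where the processing enzymes (0.42) and the import and cell cycle genes (-0.30) have the medians farthest from it.

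Other genes shared the library pattern of Penk. Over the 6 libraries the 5 genes whose log2 CPM was most like that of Penk, taken among the 5374 genes averaging a log2 CPM of 5 or more, were 9430008C03Rik (Pearson r = 0.999), Atad3a (0.996), Nxf1 (0.993), Reps1 (0.992) and Srsf3 (0.992). In all, 183 of 5374 genes reached an r of 0.95 with Penk. Only 2 of 5374 reached it with Ogfr, B4galnt3 (0.972) and Prr14 (0.958), followed by Fasn (0.935), Rbck1 (0.926) and Bace1 (0.918). These values describe 6 points that share library, depth and scaling. How many genes reach such an r with a typical gene was not tested. The 5 genes nearest to Penk had an r of 0.965 to 0.995 over the 5 libraries without Girk3-null replicate 1. They were picked for a high r over libraries that include those 5, so this is no separate check.

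Summed markers of some other cell types moved with Penk, and those of others did not. All 12 endothelial markers were detected, none at 0, and their summed level was 194, 247 and 153 CPM in the wild type and 36.8, 109 and 127 CPM in the Girk3-null libraries. Wild type replicate 2 was highest and Girk3-null replicate 1 lowest, as for Penk (r = 0.977 over 6 libraries, 0.888 without Girk3-null replicate 1). Of the 12 endothelial markers 1 was positive and 11 negative, with a median log2 fold change of -1.19. Erythroid markers, 10 detected, summed to 213, 278 and 78.8 CPM in the wild type and 56.3, 160 and 90.2 CPM in the Girk3-null libraries (r = 0.884, and 0.910 without Girk3-null replicate 1). Markers of neurons, in which opioid genes are best known, summed to only 1.70 to 5.79 CPM (r = 0.946, and 0.855 without Girk3-null replicate 1). All 11 had at least 1 count in some library, but only 4 had enough counts to be tested. The part of these cells in the Penk values was not tested.

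Perichondrial and fibroblast markers, 18 of 18 detected, summed to 10673 to 12202 CPM in the wild type and 12887 to 13504 CPM in the Girk3-null libraries, without overlap (r = -0.734 with Penk, and -0.669 without Girk3-null replicate 1). Of the 18 single markers 7 were positive and 11 negative, with a median log2 fold change of -0.18, so the sum and the median differ in sign. The sum is led by abundant genes such as Dcn, at 5309 CPM in Girk3-null replicate 1. The mean log2 CPM of the 18 markers was 6.51, 6.53 and 5.82 in the wild type and 6.23, 6.14 and 5.95 in the Girk3-null libraries. The r of the sum therefore does not describe the single markers. Osteoblast markers, 10 of 10 detected, summed to 174 to 205 CPM in the wild type and 292 to 686 CPM in the Girk3-null libraries, highest in Girk3-null replicate 1 (r = -0.868, and -0.602 without that library). Smpd3 alone made up 489, 272 and 146 CPM in Girk3-null replicates 1, 2 and 3, so this r rests largely on that gene. Of the 9 tested osteoblast markers 7 were positive and 2 negative, the latter Dmp1 (log2 fold change -1.43) and Ifitm5 (-0.30). Chondrocyte markers, 16 of 16 detected, summed to 53689 to 89280 CPM in the wild type and 82543 to 130804 CPM in the Girk3-null libraries (r = -0.351, and -0.896 without Girk3-null replicate 1). Col2a1 alone made up 28877 to 88071 CPM of these sums, so this r rests largely on that gene. Of the 16 single markers 14 were positive and 2 negative, with a median log2 fold change of 0.57. Skeletal muscle markers, 12 of 12 detected, summed to 34.8 to 84.8 CPM in the wild type and 17.1 to 49.4 CPM in the Girk3-null libraries (r = 0.276, and 0.851 without Girk3-null replicate 1). T cell markers, from cells that can express Penk when activated, summed to 1.05 to 2.37 CPM in all 6 libraries (r = 0.452, and 0.813 without Girk3-null replicate 1). All 10 had at least 1 count in some library, but only 1, Lck, had enough counts to be tested. Lck alone made up 0.585 to 1.69 CPM, so this r rests largely on that gene and on low counts. The r of the other 7 marker lists with Penk lay between -0.767 (macrophage) and 0.717 (B cell). Without Girk3-null replicate 1 they lay between -0.984 (pericyte and smooth muscle) and 0.954 (adipocyte), with macrophage at 0.056, so these values rest on few libraries. They also rest on the most abundant genes of each sum. Pericyte and smooth muscle sums were 976, 750 and 1425 CPM in the wild type and 679, 1196 and 1419 CPM in the Girk3-null libraries. The mean log2 CPM of these 9 markers ran otherwise, at 4.55, 4.32 and 3.68 against 2.68, 3.81 and 3.86, with 1 positive and 8 negative fold changes.

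**Figure D5:**
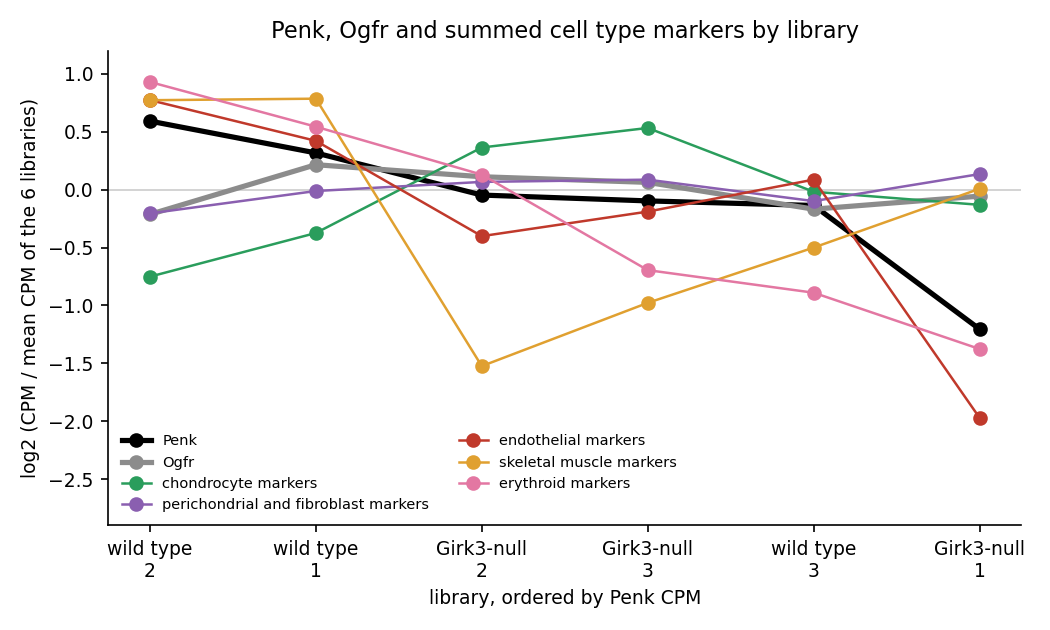
Log2 of CPM over the mean CPM of the 6 libraries, with libraries ordered from left to right by Penk level, for Penk (black), Ogfr (grey) and the summed markers of 5 cell types. Penk, endothelial and erythroid levels are highest in wild type replicate 2 and lowest in Girk3-null replicate 1, while Ogfr and the perichondrial and fibroblast markers are not.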

How the data were processed

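The table holds raw gene counts and RPKM for 6 libraries, deposited by the authors. Per the submitters' processing notes, the tools were STAR 2.5.2b and bcl2fastq 2.19.0 and the build mm10. The counting tool, the annotation and any strand setting are not stated there. The authors scaled RPKM to library total and gene length, per the labels' protocols. Columns were matched to samples by title, groups come from the genotype label, and replicates are numbered in deposit order.

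Counts were tested with edgeR 4.0.16 (quasi-likelihood, genotype alone, TMM, filterByExpr at min.count 10, min.total.count 15) in R 4.3.3. The filter left 17554 genes with 99.9% of counts, Benjamini-Hochberg adjusted. Alternatives were DESeq2 1.42.0, limma 3.58.1 (voom, and log2(RPKM + 0.1) and log2(RPKM + 1)), other filters and scaling, a title number covariate, and each library left out. The fit was tested on simulated data. Intervals of log2 fold changes use the standard error derived from the F statistic. Replicates differed beyond sampling noise (chi-square per degree of freedom 26.3 to 138). Coordinates are those of the table, and coding runs were read from GENCODE M21 transcripts.

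The members and lists were chosen with earlier results of these data known. Named genes are the 9 members, the 2 smallest p-values and 2 highest mean RPKM of each of 11 pathway lists, and the 5 genes most like each member of at least 10 CPM (Penk and Ogfr). Of 305 list genes, 298 matched by symbol and 6 by an older symbol.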

Additional observations from a re-analysis of the deposited data

How the results depend on the processing

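No member passed an adjusted p of 0.05 under any of 14 other settings or the 1 chosen after seeing the data. The log2 fold change of Penk stayed negative in all 14, from -0.83 without Girk3-null replicate 2 to -0.36 without Girk3-null replicate 1 (adjusted p 0.176 to 0.814 over edgeR, DESeq2 and limma). It was 0.072 only without Girk3-null replicate 1 with the title number covariate, where Oprd1 was 0.20 and the call count 0. Pomc and Oprl1 stayed positive and Oprd1 negative in the 13 settings that kept them, with ranges of 0.13 to 1.02, 0.03 to 1.34 and -1.13 to -0.06. Ogfr turned negative on library totals alone (-0.029), on log2(RPKM + 0.1) (-0.012) and on log2(RPKM + 1) (-0.012). The median of all genes shifted by -0.11 with library totals alone and with log2(RPKM + 0.1), so relative to it Ogfr did not turn there. The number of genes called, 1 in all 6 libraries, was 53 with no filter on low counts, 339 in DESeq2, and 0 with library totals alone, limma-voom, both RPKM scales or the title number covariate. It was 0 to 74 with 1 library left out, the 74 without wild type replicate 3. The cause was not tested. Of 153 list medians under these settings, 152 moved by less than 1 SD of the list's genes, and that of the secretory granule genes moved to -0.82 with a minimum of 1 CPM, which left 1 gene. No paired analysis was possible because the labels give no replicate number shared between the genotypes. Depth limits Pomc, Oprd1, Oprl1, Pnoc and Pdyn, which had 8 to 96 counts in all.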

Other observations

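Other neuropeptide precursors were far below Penk. Of 21 genes, 3 (Sst, Crh and Ucn) had 0 counts in all 6 libraries, and the 2 highest were Cck, at 4.03 RPKM, and Npy, at 3.93 RPKM, against 146 RPKM for Penk. Of the 11 tested, 4 were positive and 7 negative with a median log2 fold change of -0.11, and none passed in edgeR. Calca, the calcitonin and CGRP gene, had 0.952, 0.809 and 0.829 CPM in the wild type and 1.25, 1.54 and 1.28 CPM in the Girk3-null libraries, without overlap (log2 fold change 0.65, adjusted p = 0.333 in edgeR). Nts, the neurotensin precursor, had 1.502, 2.22 and 0.366 CPM in the wild type and 0.0674, 0.687 and 0.405 CPM in the Girk3-null libraries (log2 fold change -1.86, adjusted p = 0.341 in edgeR).

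Receptors for the melanocortins that Pomc also yields were at a trace as well. Of 8 matched melanocortin receptor and partner genes 3 were tested, 1 positive and 2 negative (median -0.04), and none passed. The 2 highest were the receptor accessory protein Mrap (0.485 RPKM, log2 fold change 0.84, adjusted p = 0.361 in edgeR) and the antagonist Agrp (0.302 RPKM, log2 fold change -0.25, adjusted p = 0.843 in edgeR).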
